A study of Mus musculus with 4 samples.

Results

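The genes described here encode 4 families of chemosensory G protein-coupled receptors: the sweet and umami taste receptors (Tas1r), the bitter taste receptors (Tas2r), the trace amine-associated receptors (Taar) and the formyl peptide receptors (Fpr). They were chosen by gene symbol alone, which gave 58 of the 26354 promoters listed in the deposited table: 3 Tas1r, 35 Tas2r, 13 Taar and 7 Fpr promoters. The libraries are H3K9me2 ChIP-seq and input from aortic media of C57Bl/6J males, fixed directly after the adventitia and the endothelium had been removed by hand. Of 2 independent experiments, numbered v102 and v134, both gave a ChIP library and an input library, which is chromatin sequenced without immunoprecipitation. No treatment, genotype or time was compared, the medial tissue was not sorted into cell types, and the animals' age was not given in the sources used here. The reads counted at a promoter are those within 1 kb of the transcription start site.

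H3K9me2, dimethylation of lysine 9 on histone H3, is deposited mainly by the methyltransferases EHMT1 and EHMT2 and is typical of genes that are held silent. Taste receptors are known from taste cells of the tongue, where Tas1r1 and Tas1r3 together detect amino acids, Tas1r2 and Tas1r3 together detect sugars, and Tas2r proteins detect bitter compounds. Bitter receptors have also been described in airway and vascular smooth muscle. Trace amine-associated receptors are olfactory receptors for volatile amines, except Taar1, which acts in the brain. Fpr1 and Fpr2 guide leukocytes towards bacterial and mitochondrial peptides, whereas the Fpr-rs receptors are expressed by sensory neurons of the vomeronasal organ.

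Over the listed promoters, the ChIP libraries of v102 and v134 held 162233 and 229605 reads and the input libraries 619100 and 1084349 reads. Reads outside promoters are not in these totals. At the median receptor promoter 9 ChIP reads met 17 input reads in v102, and 18.5 met 37 in v134, so the value of a single promoter carries a large counting error. H3K9me2 at a promoter does not measure expression, so the cell type could be described only by the mark: by edgeR's test described next, 3 of 7 smooth muscle genes lay below input (Myh11, Myocd and Lmod1) and 1, Smtn, above. With the experiment number as a block, Myocd and Lmod1 were not called (adjusted p = 0.0651 and 0.0631). Of 4 leukocyte genes, Ptprc (ratio 0.730) and Itgam (0.609) lay above input, while Cd68 (0.0769) and Lyz2 (0.238) were not called. Of 4 endothelial genes 0 were above and 1 below, and of 3 fibroblast genes 0 were above and 1 below. Those below, Pecam1 and Pdgfra, were not called with the block (adjusted p = 0.0922 and 0.0564). Over all promoters 18.6% were above and 17.0% below input, and 8.3% were below with the block. Lists of 3 to 7 genes are too short to be set against these shares.

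The receptor promoters carried more H3K9me2 than most promoters, but the families differed. The H3K9me2/input ratio, which the authors deposited as the ChIP reads of both experiments over the input reads of both, had a median of 0.162 and a 75th percentile of 0.343 over all promoters. Among the receptor promoters its median was 0.533 and its range 0.0847 to 1.33. The ratio lay at or above the 75th percentile at 37 of the 58 promoters, compared with 25% of all promoters. With the experiments taken separately, 29 of 58 lay in the top quartile of both, compared with 17.8% of all promoters. By edgeR's quasi-likelihood test over all promoters, with Benjamini-Hochberg adjustment at 0.05, 33 of the 58 had a ChIP to input proportion above that of the typical promoter (called above input), where 18.6% of all promoters did. All 33 were above the scaled input in both experiments. None was below input, where 17.0% of all promoters were, and none was below at an unadjusted p under 0.05 either. DESeq2 called 23 above and 0 below, with the adjusted p defined at 41 of the 58, where it called 36.1% and 0.319% of all promoters with a defined p. Its adjusted p was undefined only at receptor promoters that edgeR did not call, with few ChIP reads, such as Fpr1 (8 against 83 input reads). The DESeq2 counts therefore favour promoters high in ChIP and cannot show whether receptor promoters lie below input. In the other edgeR fits the share of all promoters above input was 16.3% with library totals, 15.8% with the experiment number as a replicate block, 17.5% under a minimum of 20 reads in each input and 18.9% without mitochondrial promoters, and the share below was 21.5%, 8.3%, 12% and 16.2%. The receptor promoters' counts in these fits were 31, 32, 11 of 21 and 33 above and 0 below in each.
The calls were 1 of 3 Tas1r, 27 of 35 Tas2r, 1 of 13 Taar and 4 of 7 Fpr promoters. Reads of 1 promoter are shared with the next where windows overlap, which was so at 5 receptor promoters.

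**Figure D1:**
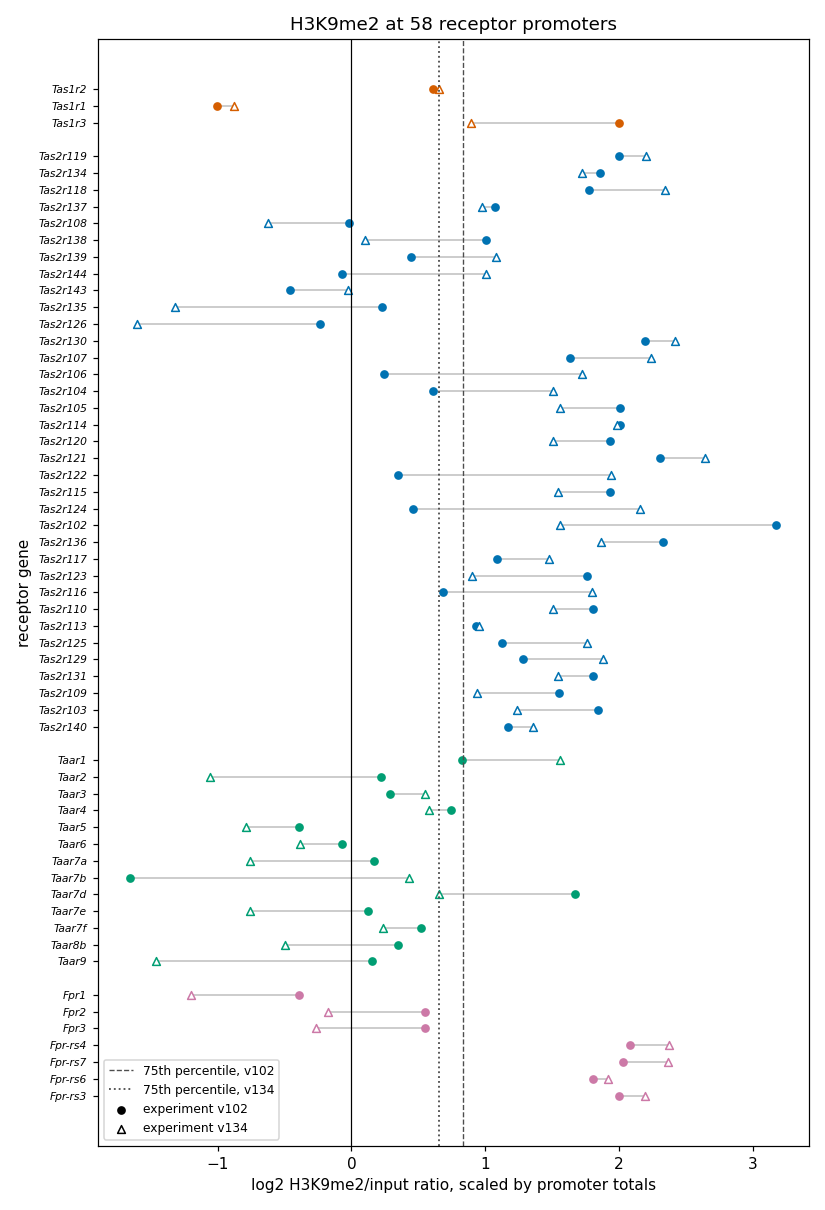
The log2 H3K9me2/input ratio (x axis, each library scaled by its total over promoters, pseudocount 1 read) of all 58 receptor promoters (y axis, ordered by family, chromosome and position) in experiment v102 (filled circles) and v134 (open triangles), with the 75th percentile of all promoters in each experiment as vertical lines. The Fpr-rs promoters and most Tas2r promoters lie right of both lines in both experiments, whereas Fpr1 to Fpr3 and most Taar promoters lie around 0.

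Reads were then pooled over the promoters of each family. The pooled ratio was 0.609 for Tas2r (95% Wilson interval 0.567 to 0.654), with 0.660 in v102 and 0.585 in v134. It was 0.581 for Fpr (0.487 to 0.692), with 0.724 and 0.517. It was 0.364 for Tas1r (0.268 to 0.495), with 0.50 and 0.270, and 0.229 for Taar (0.193 to 0.273), with 0.286 and 0.199. The order from the highest to the lowest was therefore Tas2r, Fpr, Tas1r, Taar on pooled reads and in v134, whereas Fpr was above Tas2r in v102. All intervals given here are for counting error alone, with each read treated as independent, and leave out the spread between promoters. The reads carry no molecular identifiers and cannot be taken as independent molecules, so the intervals may be too narrow.
Of the 6 pairs of families, 5 had a ratio of pooled ratios whose interval left out 1, in the same direction in both experiments. The Tas2r ratio was 2.65 times the Taar ratio (exact conditional 95% interval 2.20 to 3.22), with 2.31 in v102 and 2.95 in v134. The Taar ratio was 0.395 times the Fpr ratio (0.307 to 0.509), with 0.395 and 0.384. The Tas1r ratio was 0.598 times the Tas2r ratio (0.428 to 0.827), 0.627 times the Fpr ratio (0.431 to 0.905) and 1.59 times the Taar ratio (1.09 to 2.29). The interval included 1 in v102 alone for Tas1r over Tas2r (0.757) and over Fpr (0.691), and in v134 alone for Tas1r over Taar (1.36). Tas1r rests on 3 promoters, and without Tas1r3 its pooled ratio was 0.214 and 1.09 times that of Taar (0.623 to 1.85). The Tas2r and Fpr ratios could not be told apart, at 1.05 (0.865 to 1.27).
Promoters within a family varied by more than counting error gives, for which the chi-square divided by its degrees of freedom averages 1. This value was 5.18 for Tas2r, 3.07 for Taar, 8.09 for Tas1r and 12.7 for Fpr, so a pooled value does not describe each promoter.

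**Figure D2:**
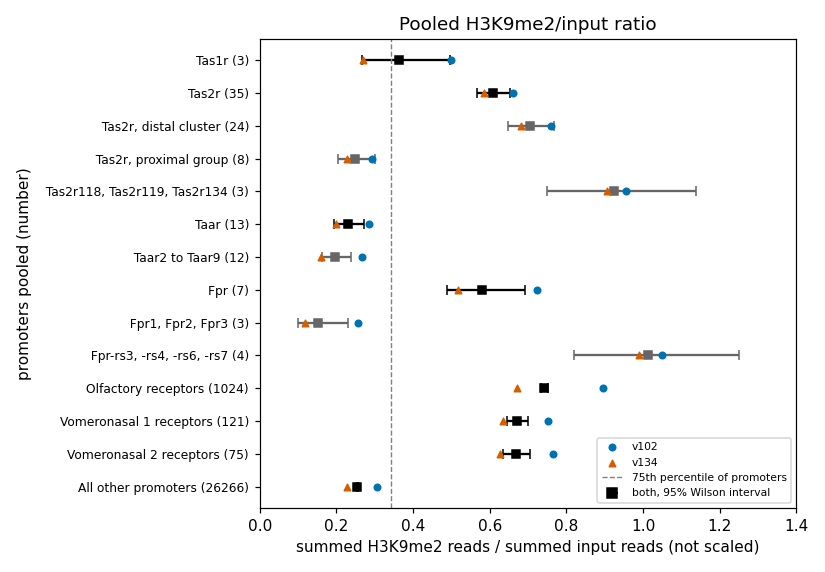
Pooled H3K9me2/input ratio (x axis) for each receptor family, for subsets of it by position (indented, grey), for other receptor families and for all other promoters (y axis, number of promoters in brackets). Squares with bars show both experiments with the 95% Wilson interval, circles v102 and triangles v134; the Fpr-rs promoters lie at 1.01 and Fpr1, Fpr2 and Fpr3 together at 0.152.

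The 3 Tas1r promoters lie far apart on chromosome 4, and the ratio was highest at Tas1r3 and lowest at Tas1r1, with the interval of Tas1r2 overlapping both. Tas1r3 (chr4:155859268-155863362, minus strand), the subunit shared by the sweet and umami receptors, had 22 and 12 ChIP reads against 21 and 32 input reads in v102 and v134. Its ratio was 0.642 (Wilson interval 0.418 to 0.984), and its log2 fold change over input was 1.63 (SE 0.41, edgeR adjusted p = 0.000666). The ratio was 1.05 in v102 and 0.375 in v134, so the size differed between experiments, while the direction did not. Tas1r1 (chr4:152027914-152038568, minus strand), the umami subunit, had 2 and 2 ChIP reads against 22 and 25 input reads, a ratio of 0.0851 (0.0319 to 0.227), and was not called (log2 fold change -1.29, SE 0.77, adjusted p = 0.172). Its window overlaps that of Nol9, which starts 0.753 kb away and had a ratio of 0.0714, so the 2 genes share reads. Tas1r2 (chr4:139653538-139670280, plus strand), the sweet subunit, had 7 and 10 ChIP reads against 19 and 32 input reads, a ratio of 0.333 (0.194 to 0.573), and was not called either (0.67, SE 0.50, adjusted p = 0.284). The RefSeq promoters of the highest and the lowest ratio, from 250 bases before to 50 after the start, are shown. That of Tas1r3 (chr4:155863304-155863603, minus strand) has 52.7% GC and 5 CG, and that of Tas1r1 (chr4:152038441-152038740, minus strand) 58% GC and 5 CG. Sequences are from the GRCm38.p6 build, written 5′ to 3′, with CG in capitals.
Tas1r3: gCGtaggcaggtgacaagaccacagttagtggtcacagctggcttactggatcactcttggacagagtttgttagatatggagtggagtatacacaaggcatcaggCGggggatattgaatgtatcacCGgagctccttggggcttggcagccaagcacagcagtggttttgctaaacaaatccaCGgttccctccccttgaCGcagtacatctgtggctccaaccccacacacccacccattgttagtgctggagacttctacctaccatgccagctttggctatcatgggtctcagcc
Tas1r1: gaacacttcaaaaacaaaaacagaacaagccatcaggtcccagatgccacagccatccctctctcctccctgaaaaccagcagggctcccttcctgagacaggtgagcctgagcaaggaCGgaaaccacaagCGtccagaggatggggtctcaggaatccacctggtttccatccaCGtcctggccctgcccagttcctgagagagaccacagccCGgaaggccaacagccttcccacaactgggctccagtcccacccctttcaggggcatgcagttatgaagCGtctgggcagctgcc

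Tas2r promoters fell apart by position. The distal cluster of chromosome 6, with 24 promoters whose starts lie between 131630912 and 133055816, had a pooled ratio of 0.706 (0.649 to 0.768), with 0.760 in v102 and 0.682 in v134. All 24 ratios were at or above the 75th percentile, from 0.414 to 1.33, and 23 of 24 were above input. The proximal group of chromosome 6, with 8 promoters between 40491233 and 42434535, had a pooled ratio of 0.248 (0.204 to 0.301), with 0.292 and 0.228, near that of all other promoters (0.255). There 1 of 8 was above input, which was Tas2r137 (ratio 0.439, adjusted p = 0.0293), but it was not called with library totals or by DESeq2 (adjusted p = 0.0664 and 0.151), which leaves 0 of 8. DESeq2 also called fewer distal promoters: over all 35 Tas2r it called 18 instead of 27, and those lost other than Tas2r137 are distal. In the top quartile of both experiments were 19 of 24 distal and 1 of 8 proximal promoters, compared with 17.8% of all promoters. The groups were formed by splitting members over 2 Mb apart, after the values had been seen, so the difference between them is a description.
Within the distal cluster the chi-square over its degrees of freedom was 1.83, compared with 5.18 over all Tas2r promoters. The promoter without a call was Tas2r113, at 0.414 with 7 and 17 ChIP reads against 15 and 43 input reads (adjusted p = 0.0610), and Tas2r109 (0.488) was called at 0.0349 but not with the experiment number as a block (adjusted p = 0.0763).

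Tas2r121 (chr6:132700090-132701007, minus strand) had the highest ratio of all 58 promoters, with 21 and 40 ChIP reads against 16 and 30 input reads. The ratio was 1.33 (0.906 to 1.94) and the log2 fold change 2.65 (SE 0.37, edgeR adjusted p = 1.10e-10). Tas2r130 (chr6:131629823-131630912, minus strand), the first gene of the cluster, had 17 and 42 ChIP reads against 14 and 37 input reads, a ratio of 1.16 (0.797 to 1.68). Tas2r105, the receptor for cycloheximide, had 18 and 24 ChIP reads against 17 and 39 input reads, a ratio of 0.75 (0.504 to 1.12). Its window overlaps that of Tas2r104 (0.507). These promoters were above input in both experiments, with log2 fold changes of 2.47 (SE 0.37) at Tas2r130 and 1.86 (SE 0.39) at Tas2r105.
Another 3 Tas2r promoters stand alone in the genome, and each carried the mark. Tas2r118 on chromosome 6 (chr6:23969161-23970060, minus strand) had 25 and 43 ChIP reads against 28 and 40 input reads, a ratio of 1.00 (0.716 to 1.4). Tas2r119 on chromosome 15 (chr15:32177289-32178294, plus strand) had 21 and 33 ChIP reads against 20 and 34 input reads, a ratio of 1.00 (0.687 to 1.45). Tas2r134 on chromosome 2 (chr2:51627511-51628408, plus strand) had 17 and 29 ChIP reads against 18 and 42 input reads, a ratio of 0.767 (0.523 to 1.12). Their log2 fold changes were 2.22, 2.25 and 1.89 (edgeR adjusted p = 7.89e-09, 6.25e-08 and 1.19e-05).

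The lowest Tas2r ratios all lay in the proximal group. Tas2r126 (chr6:42434535-42435464, plus strand) had 3 and 2 ChIP reads against 17 and 42 input reads, a ratio of 0.0847 (0.0350 to 0.205). Tas2r135, also a receptor of this group, had 7 and 3 ChIP reads against 25 and 46 input reads, a ratio of 0.141 (0.0735 to 0.270). Tas2r108, the receptor for denatonium, had 6 and 6 ChIP reads against 26 and 50 input reads, a ratio of 0.158 (0.0867 to 0.288). None of these passed the test in either direction, with log2 fold changes of -1.26 (SE 0.69), -0.55 (SE 0.55) and -0.39 (SE 0.51). The RefSeq promoters of the highest and the lowest Tas2r ratio with a listed sequence are shown. The highest is Tas2r130 (chr6:131630781-131631080, minus strand) with 37.7% GC and 3 CG. The lowest is Tas2r126 (chr6:42434285-42434584, plus strand) with 49.0% GC and 2 CG. The listed start of both is the start codon, so the last 50 bases are coding.
Tas2r130: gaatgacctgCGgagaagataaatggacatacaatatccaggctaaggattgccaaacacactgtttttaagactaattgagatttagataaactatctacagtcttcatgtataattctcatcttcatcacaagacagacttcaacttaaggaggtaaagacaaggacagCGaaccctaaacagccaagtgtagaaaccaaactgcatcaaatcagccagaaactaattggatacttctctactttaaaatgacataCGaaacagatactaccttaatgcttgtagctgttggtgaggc
Tas2r126: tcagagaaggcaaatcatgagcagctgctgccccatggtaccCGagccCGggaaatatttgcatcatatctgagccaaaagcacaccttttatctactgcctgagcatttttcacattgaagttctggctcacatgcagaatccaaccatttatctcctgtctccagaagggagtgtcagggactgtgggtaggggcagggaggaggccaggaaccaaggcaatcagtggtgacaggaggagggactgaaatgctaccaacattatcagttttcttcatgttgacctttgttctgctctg

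The 13 Taar genes form 1 cluster on chromosome 10, with starts between 23920356 and 24109534, and their promoters as a group had no more H3K9me2 than other promoters. Their pooled ratio was 0.901 times that of all other promoters, and 3 of 13 lay in the top quartile. Taar1 (chr10:23920356-23921469, plus strand), at one end of the cluster and the member that acts in the brain, had the highest ratio, with 12 and 24 ChIP reads against 27 and 39 input reads. The ratio was 0.545 (0.364 to 0.816) and the log2 fold change 1.35 (SE 0.39, edgeR adjusted p = 0.00375), higher than input in both experiments, while DESeq2 gave an adjusted p of 0.0711. The other 12 promoters together had a pooled ratio of 0.196 (0.162 to 0.238), with 0.266 in v102 and 0.159 in v134, and none was called in either direction. After Taar7d, described next, Taar4, a receptor for phenylethylamine, was at 0.344 (10 and 12 ChIP reads against 24 and 40 input reads) and Taar3 at 0.292 (7 and 12 against 24 and 41). The lowest were Taar9 at 0.115 (6 and 4 against 23 and 64), Taar5, the receptor for trimethylamine, at 0.134 (6 and 5 against 34 and 48) and Taar7e at 0.139 (3 and 2 against 13 and 23). Apart from Taar1, the spread within the cluster was 1.58 per degree of freedom, so most of these promoters differed by little more than counting error.
The 6 Taar7 and Taar8 promoters had 25 to 39 input reads, compared with 51 to 87 at the other 7. These genes are close copies of each other, so how reads were shared between them is unknown, and their values are uncertain. Taar7d, at 0.40, rests on 4 and 6 ChIP reads against 5 and 20 input reads (interval 0.195 to 0.820), and Taar7b had 0 and 5 ChIP reads against 11 and 20 input reads. The promoters of Taar7d (chr10:24026972-24027271, plus strand; 37.3% GC and 0 CG) and Taar9 (chr10:24109485-24109784, minus strand; 48.7% GC and 5 CG) are shown as the highest and the lowest with a listed sequence. Both listed starts are start codons.
Taar7d: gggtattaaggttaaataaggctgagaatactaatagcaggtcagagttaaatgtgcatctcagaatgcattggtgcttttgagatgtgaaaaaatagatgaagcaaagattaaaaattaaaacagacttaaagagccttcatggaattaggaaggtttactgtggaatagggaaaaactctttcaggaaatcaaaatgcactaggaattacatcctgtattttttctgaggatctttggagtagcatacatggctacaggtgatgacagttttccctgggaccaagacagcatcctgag
Taar9: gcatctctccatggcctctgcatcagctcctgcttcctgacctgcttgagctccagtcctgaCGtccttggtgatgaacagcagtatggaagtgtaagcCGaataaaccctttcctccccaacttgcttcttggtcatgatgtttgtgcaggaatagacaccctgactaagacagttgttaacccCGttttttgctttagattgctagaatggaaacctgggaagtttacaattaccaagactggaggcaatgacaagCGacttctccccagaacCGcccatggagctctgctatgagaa

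The Fpr family fell into 2 levels, low at Fpr1, Fpr2 and Fpr3 and high at the Fpr-rs promoters. Fpr1 (chr17:17876471-17883940, minus strand) had 3 and 5 ChIP reads against 19 and 64 input reads, a ratio of 0.0964 (0.0474 to 0.196). Fpr2 (chr17:17887824-17893952, plus strand) had 4 and 5 ChIP reads against 12 and 31 input reads, a ratio of 0.209 (0.104 to 0.423). Fpr3 was listed with 4 and 5 ChIP reads against 12 and 33 input reads, nearly the counts of Fpr2. In GENCODE the 2 genes start 28 bases apart, whereas their RefSeq promoters lie 82.6 kb apart, so with the GENCODE starts both rows count almost the same window, and the RefSeq start of Fpr3 was not measured by it. None of the 3 was called, with log2 fold changes of -1.06 (SE 0.56) at Fpr1, 0.03 (SE 0.63) at Fpr2 and -0.04 (SE 0.62) at Fpr3.
The 4 Fpr-rs promoters were all high. Fpr-rs4 (chr17:18021733-18022704, plus strand) had 19 and 33 ChIP reads against 17 and 30 input reads, a ratio of 1.11 (0.748 to 1.64). Fpr-rs7 (chr17:20113210-20114226, minus strand) had 14 and 23 against 13 and 21, a ratio of 1.09 (0.686 to 1.73). Fpr-rs3 (chr17:20623846-20624877, minus strand) had 22 and 32 against 21 and 33, a ratio of 1.00 (0.687 to 1.45), and Fpr-rs6 (chr17:20182078-20183097, minus strand) 10 and 19 against 11 and 24, a ratio of 0.829 (0.509 to 1.35). Their log2 fold changes were 2.39, 2.36, 2.24 and 1.98 (edgeR adjusted p = 1.96e-08, 1.01e-06, 6.49e-08 and 0.000195), each above input in both experiments. Pooled, the Fpr-rs promoters were at 1.01 (0.819 to 1.25), with 1.05 in v102 and 0.991 in v134, and they differed from each other by no more than counting error (chi-square over its degrees of freedom 0.310). Fpr1 to Fpr3 were at 0.152 (0.101 to 0.229), with 0.256 and 0.117, a value that counts the shared Fpr2 and Fpr3 reads in both rows. No interval of an Fpr-rs promoter overlapped that of Fpr1, Fpr2 or Fpr3.
The promoters of Fpr-rs4 (chr17:18021483-18021782, plus strand; 35.3% GC and 2 CG) and Fpr1 (chr17:17883890-17884189, minus strand; 40% GC and 1 CG) are shown as the highest and the lowest Fpr ratio. These 2 genes start 137.8 kb apart on the same chromosome. The GC content of their 2 kb windows was 39.0% and 39.2%. Fpr1 holds the letters TATAAA, searched on both strands, and Fpr-rs4 does not.
Fpr-rs4: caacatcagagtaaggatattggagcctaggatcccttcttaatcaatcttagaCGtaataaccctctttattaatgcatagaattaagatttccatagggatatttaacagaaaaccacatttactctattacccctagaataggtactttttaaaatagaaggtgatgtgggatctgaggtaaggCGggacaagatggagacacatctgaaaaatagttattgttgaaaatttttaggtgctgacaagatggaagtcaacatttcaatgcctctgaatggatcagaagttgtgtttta
Fpr1: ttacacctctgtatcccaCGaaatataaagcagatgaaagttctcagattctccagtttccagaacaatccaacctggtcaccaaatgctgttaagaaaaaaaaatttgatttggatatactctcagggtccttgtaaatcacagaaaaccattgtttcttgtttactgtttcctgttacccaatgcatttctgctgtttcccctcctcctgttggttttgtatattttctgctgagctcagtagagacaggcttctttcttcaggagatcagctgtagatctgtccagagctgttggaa

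Genes that are not receptors of these families but lie between them or within 100 kb were read for comparison. Next to Fpr1, the hyaluronan synthase gene Has1 had a ratio of 0.0833 and the microRNA genes Mir99b and Mir125a 0.227 and 0.190. The windows of these microRNA genes overlap, so they share reads. Gm7535, between Fpr2 and Fpr-rs4, had 24 and 11 ChIP reads against 12 and 31 input reads, a ratio of 0.814, and was above input (edgeR adjusted p = 2.83e-05). Its ChIP reads exceeded its input reads in v102 but not in v134, so the size of its ratio rests on v102. Around Fpr-rs7, Fpr-rs6 and Fpr-rs3, 11 other promoters, 10 of them vomeronasal receptor genes, had a pooled ratio of 0.721 (0.638 to 0.814), and 10 of the 11 were above input. The 4 other promoters of the distal Tas2r region, Hmgb1l, Prpmp5, Prh1 and A630073D07Rik, had ratios of 1.16, 0.769, 0.600 and 0.847, and all were above input. Between the proximal Tas2r promoters or within 100 kb of them, 77 other promoters had a pooled ratio of 0.397, with 33 above and 6 below input. Their ratios ran from 0.0141 at Zyx to 1.24 at Trbv23, which starts 602.8 kb from Tas2r138, the nearest Tas2r gene. The 19 of them within 100 kb of a Tas2r promoter had a pooled ratio of 0.363, with 6 above and 5 below input. Over all promoters the shares were 18.6% above and 17.0% below. Windows overlap among the 77, as at the Trbj1 and Trbj2 genes, so their pooled ratio and calls count some reads more than once.
Tas1r3 stood among promoters with little H3K9me2, and the 1 other promoter near Tas2r119 had little as well. The 10 other promoters within 100 kb of Tas1r3 had a pooled ratio of 0.0943 (0.0702 to 0.127), from 0.0444 to 0.283, and by edgeR's test 0 were above and 2, Vwa1 and Dvl1, below input. Among them the windows of Pusl1 and Acap3 overlap and share reads. Near Tas1r1, 0 of 7 other promoters were above and 3 below input, and Aldh4a1, the 1 other promoter near Tas1r2, was below input (ratio 0.0323, adjusted p = 0.0117). Sema5a, the 1 other promoter within 100 kb of Tas2r119 and 67.5 kb from it, had a ratio of 0.0196 and was below input (edgeR adjusted p = 0.00985). Near the Taar cluster, Vnn3 (0.476), a gene of the vanin family, was above input, whereas Vnn1 (0.186) and Stx7 (0.271) were not called.

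**Figure D3:**
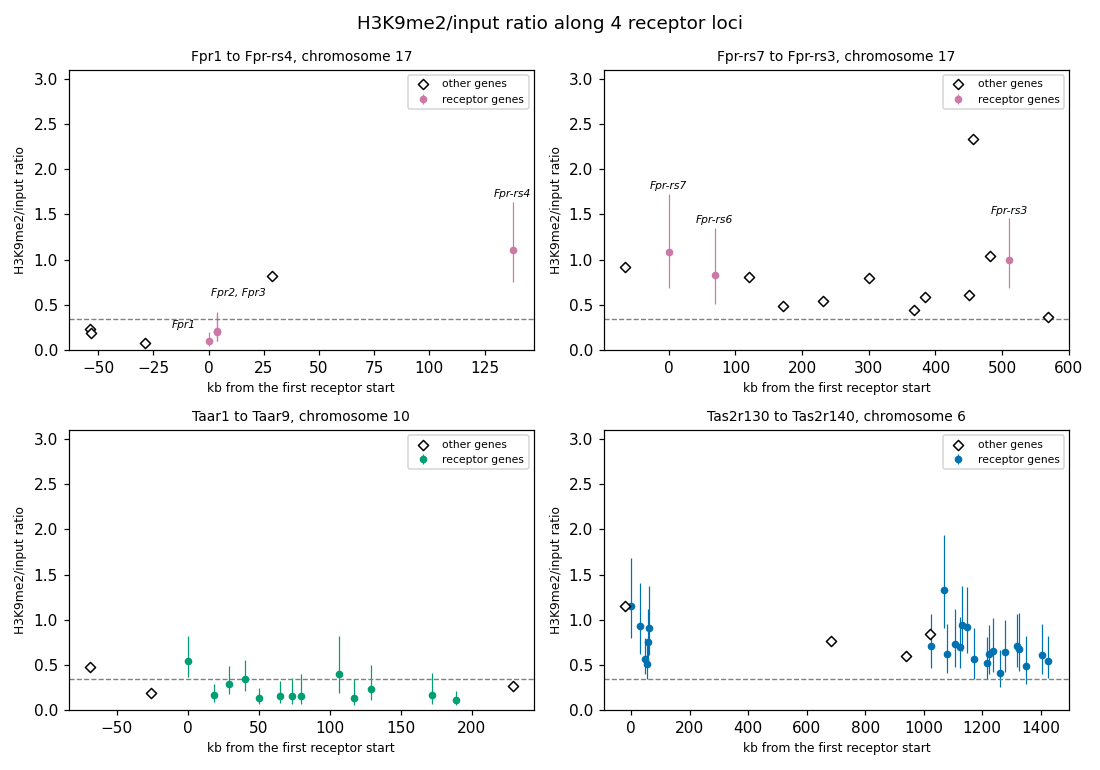
H3K9me2/input ratio of summed reads (y axis) against distance from the first receptor start (x axis, kb) at 4 receptor loci, with receptor promoters as filled circles with 95% Wilson intervals and other genes as open diamonds without intervals; the dashed line is the 75th percentile of all promoters, 0.343. The ratio is under the line from Mir99b to Fpr2, over it at Gm7535 and Fpr-rs4, and above the line at all 24 Tas2r promoters of the distal cluster, and below it at most Taar promoters.

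Base composition moved with some of these differences. Promoters poor in GC had higher ratios over the whole table, with a Spearman rho of -0.549 between the GC content of the 2 kb window and the mean log2 ratio over 22299 promoters, and of -0.497 over the 58 receptor promoters. Within families rho was -0.171 over 35 Tas2r, -0.262 over 13 Taar and -0.559 over 7 Fpr promoters. The promoters share libraries and, in clusters, sequence, so no test was made. The median GC content was 34.8% in the distal Tas2r cluster, 43.3% in the proximal group, 42.5% in Taar, 39.2% in Fpr and 55.1% in Tas1r, compared with 50.9% over all other promoters. The proximal and distal Tas2r groups therefore differed in GC content as well as in position. The 3 Tas2r promoters that stand alone had a median GC content of 42.9%, near that of the proximal group, and a pooled ratio of 0.923.
When the trend with GC content was removed, the number of the 58 receptor promoters in the top quartile fell from 37 to 18. A top quartile holds 25% of all promoters ranked, so most of the excess was gone. The median percentile of all 58 moved from 85.4 to 57.5. The median percentile of the distal Tas2r cluster moved from 91.0 to 67.9, with 8 of 24 in the top quartile, and that of the proximal group from 62.8 to 35.9, with none. That of the Taar promoters moved from 53.8 to 24.1, that of all Tas2r from 87.7 to 66.0 and that of all Fpr from 94.8 to 84.0. That of Tas1r rose from 75.8 to 91.6, with 2 of 3 in the top quartile. Tas1r then had the highest family median, whereas on pooled reads its ratio was below those of Tas2r and Fpr. All 4 Fpr-rs promoters stayed in the top quartile, between percentiles 84.0 and 92.5, whereas Fpr1 to Fpr3 lay between 5.96 and 28.1 at a GC content that differed little, 39.2% to 39.3% compared with 37.7% to 39.3%. Tas1r3 was at percentile 98.1, Tas2r119 at 95.2, Tas2r121 at 93.3 and Taar1 at 78.
Of the 58 genes, 52 matched a RefSeq promoter by symbol. At 44 of these 52 the listed start is an ATG, compared with 5.83% of 32851 promoters, so for most of these genes the window is centred on the start codon and the position of the true start site is not known from the annotation. No CG was found in 14 of 52 promoters (26.9%), compared with 5.43% of all, and TATAAA on either strand in 20 of 52 (38.5%), compared with 13.6%. These are counts of letters in windows of 300 bases.

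**Figure D4:**
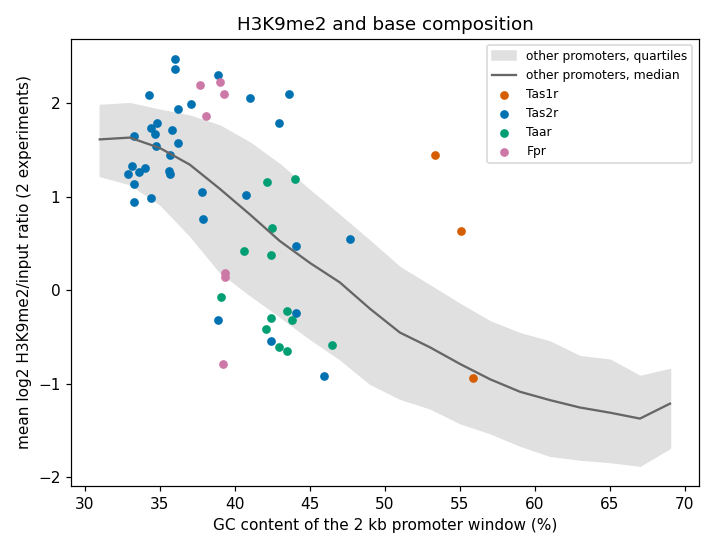
Mean log2 H3K9me2/input ratio of the 2 experiments (y axis) against the GC content of the 2 kb promoter window (x axis, %) for the receptor promoters, coloured by family, over the median (line) and quartiles (shading) of the other promoters in GC bins. At the GC content of the Fpr promoters, Fpr-rs genes lie above the shaded range and Fpr1 below it, Taar promoters lie mostly under the median line, and Tas1r3 and Tas1r2 lie above the range.

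The larger chemosensory families had higher pooled ratios than Tas1r, Tas2r, Taar and Fpr as whole families, but not than every part of them. The Fpr-rs promoters (1.01) and the 3 Tas2r promoters that stand alone (0.923) lay above all of the larger families. The distal Tas2r cluster (0.706) had an interval, 0.649 to 0.768, that included the values of all of them. The Tas2r parts were formed after the values had been seen. The pooled ratio was 0.743 for 1024 olfactory receptor promoters, 0.672 for 121 vomeronasal 1 and 0.669 for 75 vomeronasal 2 receptor promoters, and 84.2%, 78.5% and 85.3% of them were above input, compared with 77.1% of Tas2r. The Tas2r ratio was 0.820 times the olfactory ratio (exact conditional 95% interval 0.762 to 0.882), with 0.737 in v102 and 0.873 in v134, and 0.906 and 0.910 times the ratios of the vomeronasal families (0.834 to 0.984 and 0.831 to 0.996). The Taar ratio was 0.309 times the olfactory ratio (0.258 to 0.368), with 0.319 and 0.296. All 58 receptor promoters together were at 2.01 times the ratio of all other promoters, with 1.87 in v102 and 2.12 in v134.

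Genes of the signalling pathways around these receptors were read for comparison. Of 30 genes for signalling proteins of taste cells and olfactory and vomeronasal neurons, for ligands of formyl peptide receptors, and for leukocyte alarmins and other chemoattractant receptors, 29 were listed, with a pooled ratio of 0.177 (0.156 to 0.200) and a median log2 fold change of -0.49, compared with -0.35 over all promoters. Of these, 2 were above input: Rtp1, which brings olfactory receptors to the cell surface (0.509, adjusted p = 0.0116), and S100a9, a leukocyte alarmin (0.429, adjusted p = 0.0457). Below input were 3: Itpr3 (0.0299, adjusted p = 0.00714) and Trpm5 (0.0563, adjusted p = 0.0278), the calcium release channel and the cation channel of taste cells, and Cnga4 (0.0441, adjusted p = 0.0184), a subunit of the olfactory transduction channel. With the experiment number as a block, S100a9, Trpm5 and Cnga4 were not called (adjusted p = 0.0759, 0.0612 and 0.0552). The shares over all promoters were 18.6% and 17.0%, and 8.3% below input with the block. Gnat3, the taste G protein, had a ratio of 0.447 and Plcb2, the phospholipase downstream of taste receptors, 0.0577, and neither was called (adjusted p = 0.0575 and 0.0662).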

How the data were processed

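H3K9me2 and input reads were counted in 2 experiments with 1 ChIP and 1 input library each. Per the labels and the study's methods, the authors prepared libraries with the DNA SMART ChIP-seq kit, trimmed paired-end reads (Trim Galore 0.4.2, cutadapt 1.9.1), aligned them to GRCm38 with Bowtie2 2.2.7 and counted reads within 1 kb of each start with SeqMonk. They deposited raw counts per promoter, summed counts and the ratio of summed counts, which was not scaled for library size. The lowest summed input was 21 reads. The annotation release, the treatment of duplicate and multiply mapped reads and whether experiments came from separate animals were not given in the sources used here, so p-values measure the spread between these libraries, which may be technical.

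From the counts, ChIP was compared with input by edgeR 4.0.16 (R 4.3.3; quasi-likelihood, TMM, all 26354 promoters, Benjamini-Hochberg), after a test on simulated data, and by DESeq2 1.42.0. The SE of a log2 fold change was taken from its absolute value and the square root of the F statistic. Ratios of pooled ratios carry exact conditional intervals of the odds ratio (scipy 1.17.1). Positions came from GENCODE M21, in which all 58 members matched 1 gene; 84.7% of all symbols did. The GC trend was removed with a lowess fit (fraction 0.3, statsmodels 0.14.6) to autosomal and X promoters outside these families and the olfactory and vomeronasal receptors. The study states that each ChIP had its associated input, so experiment numbers pair libraries; the differences between experiments correlated at 0.0799 between ChIP and input. The members, lists and tests were chosen with earlier results of these data known. All Tas1r and Fpr genes are named; of Tas2r and Taar, the 4 highest and 3 lowest ratios, Taar1, Tas2r105 and Tas2r108; and listed and neighbouring genes that passed the test, named or given by counts. Tas2r104, Tas2r109, Tas2r113, Tas2r134, Tas2r137, Taar7b, and the neighbours and listed genes that did not pass were added after their values were seen. Alternatives are given in the closing section.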

Additional observations from a re-analysis of the deposited data

How the results depend on the processing

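Counts of members above input were 33 by edgeR, 32 with the experiment number as a replicate block (Tas2r109 was lost), 31 with library totals (Tas2r109 and Tas2r137 were lost), 33 without mitochondrial promoters and 23 by DESeq2; every one of these calls was among the 33. Library totals moved the median log2 fold change over the whole table to -0.50 from -0.35. Under a minimum of 20 reads in each input only 21 of the 58 promoters remained, which lowers every count: 11 were above input, 14 in the top quartile and 10 in that of both experiments alike. After removal of the GC trend 18 of the 58 were in the top quartile instead of 37, where a top quartile holds 25% of promoters. No member was below input under any of these settings, though DESeq2 gave an adjusted p at only 41 of the 58.

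Without each replicate in turn, which leaves 1 experiment and no test, the pooled ratio ranged from 0.270 to 0.50 for Tas1r, 0.585 to 0.660 for Tas2r, 0.199 to 0.286 for Taar, 0.517 to 0.724 for Fpr and 0.484 to 0.569 for all members. The ratios in v102 were higher for all promoters too. Under the minimum of 20 input reads it was 0.528 for Tas2r, 1.00 for Fpr (Fpr-rs3 alone) and 0.446 for all members. The median over promoters was 0.167 for Taar and 0.829 for Fpr. Without Fpr2 and Fpr3, whose windows overlap, the Fpr ratio was 0.711, and without Tas1r3 the Tas1r ratio was 0.214.

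Differences that involve Tas1r did not hold throughout. Without each replicate in turn, Tas1r was at 0.461 to 0.757 times Tas2r, 1.36 to 1.75 times Taar and 0.522 to 0.691 times Fpr, and in each case 1 of the experiments alone gave an interval that included 1. So did Tas1r over Tas2r (0.719) and over Taar (1.52) under the minimum of 20 input reads, and Tas1r over Taar (1.09) without the promoter with most ChIP reads. Tas2r over Fpr, which could not be told from 1, ranged from 0.912 to 1.13 without each replicate and was 0.528 under the minimum of 20 input reads, where Fpr-rs3 alone remained. The other alternatives left Tas2r over Taar and Taar over Fpr on the same side of 1. Splitting the proximal Tas2r group at 1 Mb, an alternative chosen after seeing the data, gave 0.291 and 0.220. The causes were not tested, other than where fewer promoters remained.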
